A study of Mus musculus with 24 samples.

Results

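The miRNAs described here are the mature arms of the miR-140 and miR-455 hairpins, mmu-miR-140-5p, mmu-miR-140-3p, mmu-miR-455-3p and mmu-miR-455-5p, which were chosen by name as 4 of the 1881 mouse miRNAs on the array. miR-140 is best known as a miRNA of cartilage, where chondrocytes express it under the control of SOX9. miR-455 is likewise expressed in developing cartilage, and loss of either miRNA in mice harms joint cartilage. The sclera, the collagen-rich outer coat of the eye, contains a cartilage layer in birds but not in mice, and is remodelled as a myopic eye elongates. A miRNA hairpin gives 2 mature arms, 5p and 3p, and each binds target mRNAs mainly through its seed, bases 2 to 8.

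Both hairpins lie inside protein-coding genes. Mir140 lies within Wwp2, which encodes a ubiquitin ligase expressed in cartilage, on chromosome 8. Mir455 lies within Col27a1, which encodes a fibrillar collagen of cartilage, on chromosome 4. The following sequences show which seeds the measured arms carry and where the 3p arm sits in the miR-140 hairpin. They are RefSeq sequences of the build GRCm38.p6, both genes on the plus strand, and 3 of the 4 mature arms were matched by name. Capitals mark the seed of a mature arm and, in the hairpin, the miR-140-3p arm.
mmu-miR-140-3p, chr8:107551288-107551308: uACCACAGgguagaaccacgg
mmu-miR-455-3p, chr4:63256904-63256924: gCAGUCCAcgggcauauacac
mmu-miR-455-5p, chr4:63256867-63256888: uAUGUGCCuuuggacuacaucg
Mir140 hairpin, chr8:107551244-107551313: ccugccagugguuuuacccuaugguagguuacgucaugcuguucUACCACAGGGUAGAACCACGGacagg
The 3 seeds differ from each other. Among array miRNAs with a matched sequence, mmu-miR-497b shared the miR-140-3p seed and mmu-miR-5129-3p shared the miR-455-5p seed, and neither was detected on any array. No other array miRNA with a matched sequence shared the miR-455-3p seed.

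Total RNA of C57BL/6J mice was hybridized to 24 one-colour miRNA arrays, 1 for each of 8 tissues in each of 3 groups. The tissues were cornea, iris, lens, retina, choroid (dissected with the retinal pigment epithelium), sclera and the brain samples labelled SCN and LGN. The groups were normal eyes without a lens, eyes with a 0 D lens, and lens-induced eyes, which wore a -30 D lens for 3 weeks from 3 weeks of age as a model of myopia. Each ocular array of the normal and lens-induced groups held an equal mix of RNA from the right eyes of 3 male mice, and the methods used here do not describe the 0 D lens group or the brain samples. Each group lay on a slide of its own, so that lens, slide and mouse pool cannot be told apart, and each tissue had 1 array position on all 3 slides, so that tissue and position cannot be told apart either. The 3 arrays of a tissue therefore serve as its replicates across the lens groups, and the spread given below includes any effect of the lens.

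A signal is the sum of the probe signals that exceeded 3 times their own error, in intensity units, scaled so that the 79 miRNAs seen on every array had the same 75th percentile on each. Each array detected 129 to 249 miRNAs, and the sclera arrays detected 216 to 239. The mesenchyme marker list (miR-199a-3p, miR-199a-5p and miR-214-3p) was detected in full on all 3 sclera arrays, with a summed signal of 1089 to 1266, against 469 to 519 in choroid, 249 to 284 in cornea, 103 to 121 in iris, 3.63 to 4.78 in retina and 0 in lens tissue. Markers of neighbouring cells were also present in sclera. The sums over the 3 photoreceptor and sensory markers were 441 to 1094 in sclera and 14498 to 16170 in retina, and the surface epithelium list reached at most 8.76 in sclera against at least 1675 in cornea. The striated muscle list summed to 153 to 330 in sclera, 83.9 to 132 in choroid and 686 to 757 in lens tissue, with miR-499-5p at 0 in both sclera and lens tissue. The part of these cell types in the results below was not tested.

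Both arms of miR-140 had their highest signal in sclera and the next highest in choroid. In sclera, miR-140-5p measured 229 in normal eyes, 190 in 0 D eyes and 183 in lens-induced eyes, a mean of 201 ± 24.8 (SD, n = 3). In choroid it measured 111, 88.9 and 114 in the same order, a mean of 104 ± 13.6 (SD, n = 3). Every sclera array was above every choroid array. The share of all miRNAs separated between single pairs of tissues was not counted, here or below. In these tissue extracts, fewer cells of a type and less RNA per cell cannot be told apart.

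The other tissues followed at a distance. miR-140-5p averaged 50.3 ± 3.53 in retina, 47.5 ± 4.36 in SCN, 40.4 ± 0.965 in iris, 37.6 ± 3.35 in LGN and 14.4 ± 1.03 in cornea (SD, n = 3 each). Retina and SCN overlapped, as did iris and LGN, and all other neighbours in this order were separated. In lens tissue miR-140-5p was detected on 2 of 3 arrays, at 16.3 and 16.9, and the undetected array had an upper limit of 27.6.

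miR-140-3p followed the same order. Its sclera signals were 164 in normal, 181 in 0 D and 134 in lens-induced eyes, a mean of 160 ± 23.7 (SD, n = 3), and its choroid signals were 84.7, 101 and 89.4. Retina averaged 36.3 ± 3.26, SCN 31.6 ± 4.97, iris 20.2 ± 2.01 and LGN 15.1 ± 0.428 (SD, n = 3 each), and only retina and SCN overlapped. In cornea it was detected on the lens-induced array alone, at 9.76, and in lens tissue on none, with limits of 22.2 to 27.5.

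miR-455-3p was far dimmer and had another distribution. Sclera measured 19.6 in normal, 14.6 in 0 D and 16.5 in lens-induced eyes, a mean of 16.9 ± 2.51 (SD, n = 3). Choroid measured 14.3, 8.79 and 13.0 in the same order. Cornea averaged 13.9 ± 1.16 and iris 6.06 ± 0.968 (SD, n = 3 each). Sclera overlapped with cornea and cornea overlapped with choroid, the lowest sclera array lay just above the highest choroid array, and iris lay below all 3 tissues. It was not detected on any array of retina, lens, SCN or LGN, with upper limits of 5.09 to 6.21 in retina, 6.70 to 10.1 in SCN, 5.74 to 7.43 in LGN and 22.1 to 27.5 in lens tissue. The lens limits lie above the sclera signals, so the order of these 2 tissues is not known.

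miR-455-5p was not detected on any of the 24 arrays. Its 2 probes gave unscaled signals between -2.06 and 2.40, and the highest was 1.21 times its own error. The upper limits in sclera were 7.04 to 11.2 against the 14.6 to 19.6 measured there for miR-455-3p, whose probes are others. Detection of the others also rested on unequal probes. The brighter miR-140-5p probe passed on 23 arrays and the dimmer on 18, the miR-140-3p probes passed on 19 and 13 arrays, and the miR-455-3p signal rested on 1 probe that passed on 12 arrays while the other passed on 0.

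**Figure D1:**
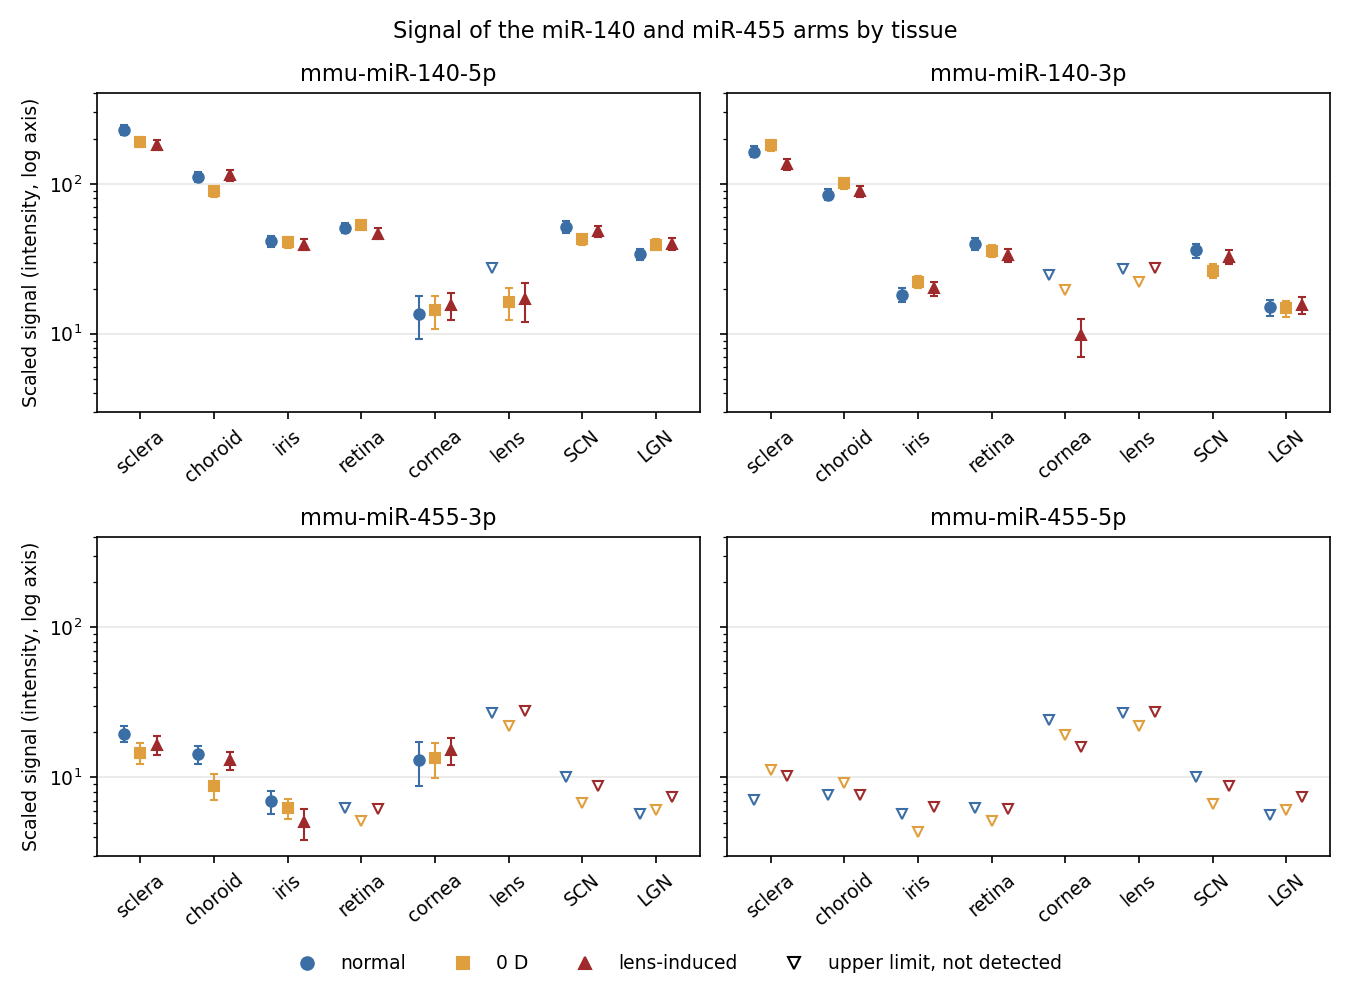
Scaled signal (intensity, log axis) of each arm in each tissue. Filled symbols are single arrays of the 3 lens groups with the probe error as bar, and open triangles are upper limits of arrays without detection. Both miR-140 arms are highest in sclera, at 183 to 229 and 134 to 181, miR-455-3p runs from 8.79 to 19.6 in sclera, cornea and choroid, and miR-455-5p has limits only.

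Which miRNAs were higher in sclera than elsewhere was tested with limma over the 352 miRNAs detected on at least 3 arrays, with tissue and lens group in the model and Benjamini-Hochberg adjustment over all of them. Sclera exceeded the mean of the 7 other tissues by 2.89 ± 0.16 (log2 ± SE, adjusted p = 9.89e-11) for miR-140-3p, by 2.49 ± 0.16 (adjusted p = 5.73e-10) for miR-140-5p and by 1.88 ± 0.14 (adjusted p = 3.57e-09) for miR-455-3p. Of all miRNAs tested, 33.0% were higher in sclera in this contrast, so that passing the test was common, and the 3 detected arms ranked 8, 17 and 42 by the size of the difference. In these fits an undetected miRNA took the dimmest signal detected on that array. For miR-455-3p this was so on every array of retina, lens tissue, SCN and LGN, so its difference, SE and rank rest on set values for these tissues. Where it was measured, sclera exceeded cornea by 0.28, choroid by 0.51 and iris by 1.48. For miR-140-3p it was so on every lens tissue array and on the normal and 0 D cornea arrays. The miR-140-3p differences from these tissues, 4.32 and 4.25, and so its mean difference, SE and rank, rest partly on set values. For miR-140-5p it was so on the normal lens tissue array. Within each lens group the difference from the mean of the 7 other tissues was 2.78, 2.41 and 2.28 for miR-140-5p (normal, 0 D and lens-induced), 2.98, 3.10 and 2.58 for miR-140-3p, and 2.01, 1.89 and 1.75 for miR-455-3p. The size depended on the processing. After normexp, whose offset of 50 compresses dim signals, the differences were 1.43 for miR-140-5p, 1.5 for miR-140-3p and 0.40 for miR-455-3p, and with undetected values at 0.1 they were 2.79, 4.39 and 4.55.

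A stricter description is whether the lowest sclera array exceeded the highest array of all other tissues. Both miR-140 arms met it, as 20 of the 352 miRNAs did (5.68%), and miR-455-3p did not.

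**Figure D2:**
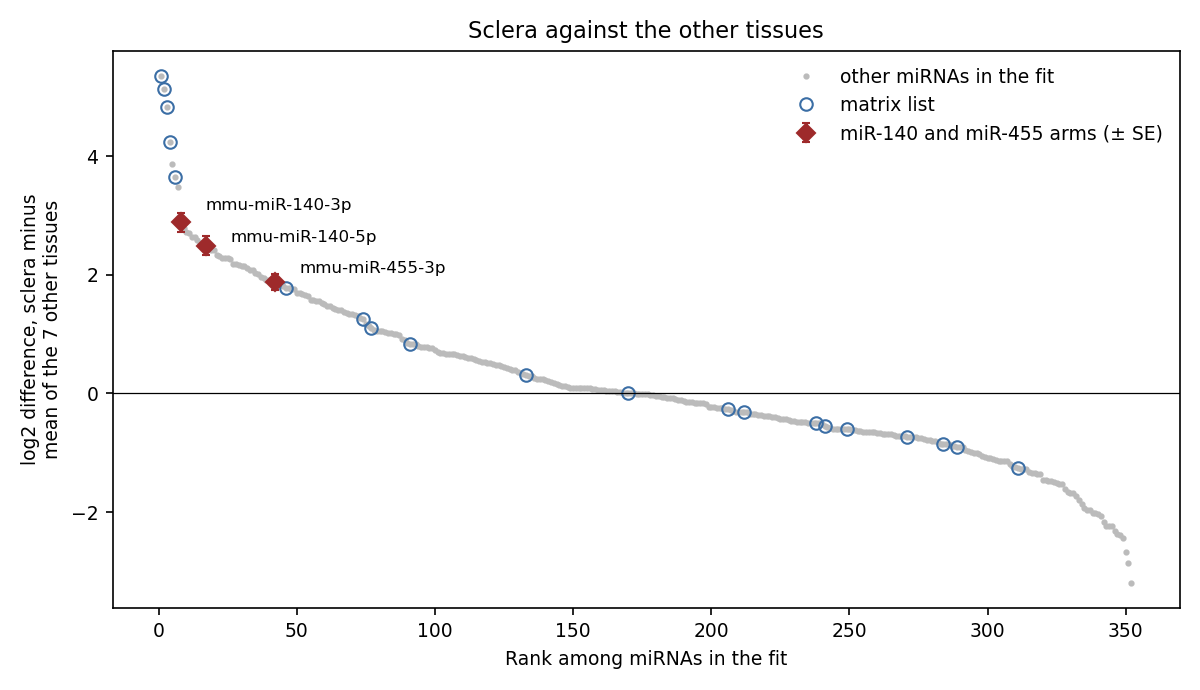
Difference in log2 signal between sclera and the mean of the 7 other tissues for the 352 miRNAs of the fit, ranked from the largest. The arms stand at ranks 8, 17 and 42 with bars for the SE, and the miRNAs of a matrix list (open circles) run from 5.35 to -1.26.

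Against single tissues, the sclera excess of miR-140 depended on the tissue. miR-140-5p was 13.9-fold higher in sclera than in cornea, 5.32-fold higher than in LGN, 4.94-fold higher than in iris, 4.21-fold higher than in SCN and 3.97-fold higher than in retina (adjusted p from 4.38e-11 to 1.75e-07). In cornea only the brighter probe passed, and with that probe alone the difference was 3.28 in place of 3.79 on the log2 scale. miR-140-3p was 10.5-fold higher than in LGN, 7.89-fold higher than in iris, 5.06-fold higher than in SCN and 4.38-fold higher than in retina (limma, adjusted p from 1.45e-10 to 7.80e-08). With the brighter probe alone its differences from LGN and iris were 2.94 and 2.65 in place of 3.39 and 2.98. Where arrays had no detection the ratio is a bound. With the upper limit of the summed probes on all 3 arrays, miR-140-5p was at least 7.51-fold higher than in lens tissue (2 of 3 lens arrays measured) and miR-140-3p at least 7.96-fold higher than in cornea (1 of 3 cornea arrays measured). miR-140-3p was also at least 6.25-fold higher than in lens tissue. The share of all miRNAs higher in sclera was 24.7% against cornea, 54.8% against iris, 52.8% against retina, 29.0% against lens tissue, 39.5% against SCN and 49.7% against LGN. A miRNA undetected in both tissues takes the difference between their set values, and these shares can include it. With undetected values at 0.1 the counts of 352 fell from 193 to 76 against iris and from 186 to 93 against retina. They fell from 175 to 115 against LGN and from 139 to 113 against SCN, but rose from 87 to 124 against cornea and from 102 to 140 against lens tissue.

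These calls were not lost when any lens group was left out, but several depended on how the signals were scaled and undetected values set. Scaled to the 75th percentile over all miRNAs, which falls among undetected ones, the differences that no longer passed were those of miR-140-5p from iris (0.78), retina (0.52), SCN (1.56) and LGN (1.56) and of miR-140-3p from iris (1.46), retina (0.66) and SCN (1.83). With undetected values at 0.1 these differences did not move, but the calls of miR-140-5p against iris, retina, SCN and LGN were lost (adjusted p from 0.0841 to 0.165), as were those of miR-140-3p against retina (0.0986) and SCN (0.0636). With the total printed in the scanner files, the miR-140-3p calls against cornea, iris, retina, SCN and LGN were lost (adjusted p from 0.0613 to 0.731, with a difference of 0.37 from LGN), as was that of miR-140-5p against lens tissue (0.57).

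Against choroid, the tissue that lies beside the sclera in the eye, the differences were smaller. miR-140-5p was 1.92-fold higher in sclera, or 0.94 ± 0.21 (log2 ± SE, limma adjusted p = 0.00391), and miR-140-3p 1.74-fold higher, or 0.80 ± 0.21 (adjusted p = 0.0136). miR-455-3p was 1.43-fold higher, 0.51 ± 0.18, which did not pass (adjusted p = 0.0584). It passed with undetected values at 0.1 (adjusted p = 0.0189), after normexp (0.38, adjusted p = 0.0101) and with the brighter probe alone (0.52, adjusted p = 0.0367), and was -0.05 without scaling. Of all miRNAs tested, 9.94% were higher in sclera than in choroid. The choroid calls were lost without scaling, where the differences were 0.38 for miR-140-5p (adjusted p = 0.361) and 0.23 for miR-140-3p (adjusted p = 0.691), since leaving out the scaling shifts each sclera minus choroid difference by -0.56. They were also lost with the 75th percentile over all miRNAs (differences of 2.14 and 2.0, adjusted p = 0.0817 each), with undetected values at 0.1 (adjusted p = 0.884 and 0.917), with the printed total (adjusted p = 0.608 and 0.921) and, for miR-140-3p, after quantile normalization (0.74, adjusted p = 0.106). The miR-140-3p call was also lost when the arrays of any single lens group were left out (adjusted p from 0.0595 to 0.0892), and the miR-140-5p call without the 0 D arrays (adjusted p = 0.0722), and both were lost with no filter on detection, where the differences remained 0.94 and 0.80 and the adjustment ran over 1881 miRNAs (adjusted p = 0.161 and 0.207).

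miR-455-3p set cornea apart from the pattern of miR-140. It was 1.21-fold higher in sclera than in cornea, 0.28 ± 0.18 (log2 ± SE), a difference that did not pass (limma adjusted p = 0.187), and its sign depended on the normalization: the difference was 0.96 without scaling (adjusted p = 0.00322) and -0.43 after normexp background correction (adjusted p = 0.000986). Sclera was 2.80-fold higher than iris (adjusted p = 1.72e-06), a call lost after quantile normalization (1.03, adjusted p = 0.14), with the printed total (0.32, adjusted p = 0.328) and with the 75th percentile over all miRNAs (-0.04, adjusted p = 0.975). It was at least 2.90-fold higher than retina, at least 2.64-fold higher than LGN and at least 2.0-fold higher than SCN. The limma differences for these tissues, 3.46, 3.37 and 3.01, had adjusted p from 1.71e-11 to 6.41e-11. They set all arrays of these tissues at the dimmest detected signal, so their p-values do not test the bounds. No ratio to lens tissue can be given.

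Because the 2 miRNAs are read on 1 array, their ratio within an array does not depend on a scaling by 1 factor per array. Quantile normalization can change it. The log2 ratio of miR-140-5p to miR-455-3p was 3.55 in normal, 3.70 in 0 D and 3.47 in lens-induced sclera. It averaged 3.57 ± 0.12 in sclera, 3.14 ± 0.19 in choroid, 2.75 ± 0.20 in iris and 0.05 ± 0.03 in cornea (SD, n = 3 each). The 3 cornea arrays, at 0.03 to 0.09, lay far below the lowest array of the other tissues, at 2.57. On the normal cornea array the unscaled signals were 6.82 ± 2.17 for miR-140-5p and 6.61 ± 2.16 for miR-455-3p (± probe error), close to the detection limit. The SDs across arrays do not include this error. In cornea only the brighter miR-140-5p probe passed, so the dimmer probe is left out of the ratio there. The probes of different miRNAs differ in response, so only the change of this ratio between tissues can be read, and it is given as a description that was chosen after the values were seen.

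The arms of miR-140 rose and fell together across tissues. Over the 24 arrays, Pearson's r between the log2 signals of miR-140-5p and miR-140-3p was 0.96, and each arm had the other as the miRNA most like it. The next most alike were mmu-miR-1895 (r = 0.83) and the endothelial mmu-miR-126a-3p (r = 0.80) for miR-140-5p, and mmu-miR-1895 (r = 0.87) and mmu-miR-690 (r = 0.87) for miR-140-3p. miR-455-3p was most like mmu-miR-199a-5p (r = 0.94), mmu-miR-7682-3p (r = 0.93) and mmu-miR-7218-5p (r = 0.92), and correlated weakly with miR-140-5p (r = 0.13) and miR-140-3p (r = 0.21). These arrays share tissues, slides and values set at the detection limit, and the correlations are descriptions.

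The ratio of the arms varied between tissues. The log2 ratio of miR-140-5p to miR-140-3p was 0.48 in normal, 0.07 in 0 D and 0.44 in lens-induced sclera, a mean of 0.33 ± 0.23 (SD, n = 3). It averaged 0.18 ± 0.32 in choroid, 0.47 ± 0.11 in retina, 0.60 ± 0.10 in SCN, 1.01 ± 0.16 in iris and 1.31 ± 0.13 in LGN (SD, n = 3 each), and the single cornea array with both arms gave 0.67. The LGN and iris arrays, at 0.87 and above, lay above every sclera and choroid array. On all 3 LGN arrays and 2 of 3 iris arrays the dimmer miR-140-3p probe did not pass. With the brighter probe of each arm alone the 6 tissues with 3 arrays kept this order, from -0.01 in choroid and 0.15 in sclera to 0.60 in iris and 0.80 in LGN. Sclera differed from the mean of the other tissues by -0.38, which an exact two-sided permutation test within lens groups did not separate from 0 (p = 0.222, 252 relabelings, smallest possible p = 0.00397). In both sclera and choroid the 0 D array had the lowest ratio, at 0.07 and -0.18, against 0.35 to 0.48 on the other 4 arrays. It was also the lowest in iris, at 0.87, but the highest in retina, SCN and LGN, at 0.58, 0.71 and 1.42, so the direction was mixed over tissues. No arm ratio can be given for miR-455, whose 5p arm was not detected.

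**Figure D3:**
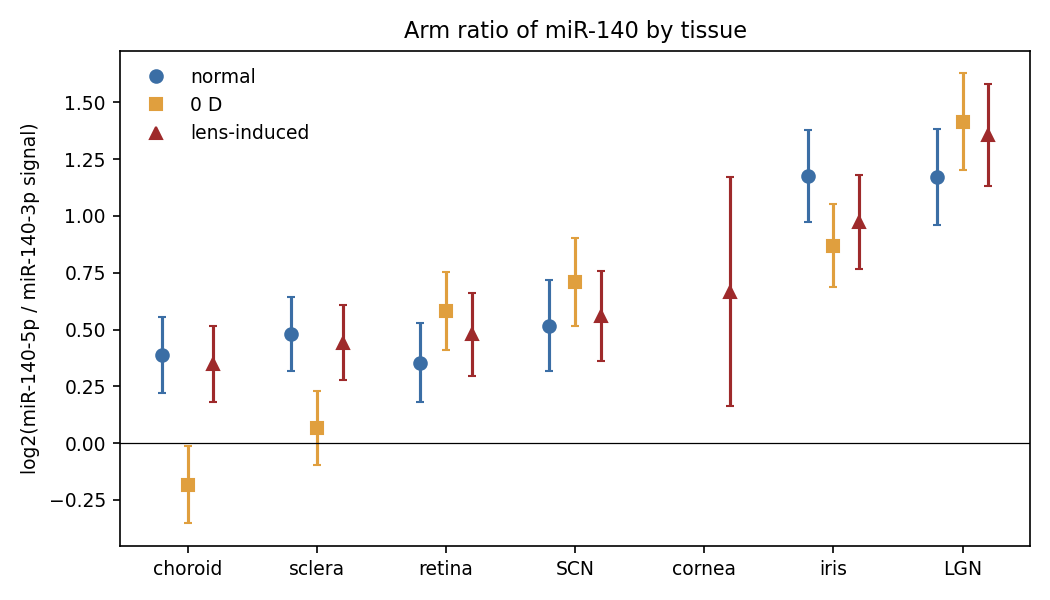
Log2 ratio of the miR-140-5p to the miR-140-3p signal on each array with both arms detected, by tissue, with the propagated probe error as bar. The ratio runs from -0.18 in 0 D choroid to 1.42 in 0 D LGN, and cornea has 1 array and lens tissue none.

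The lens groups were compared within each tissue by the criteria of the study's methods, a ratio above 2 or below 0.5 with both arrays detected, or above 5 or below 0.2 with 1 array detected. For the second criterion the undetected array was set here to 0.1, a value the methods do not state. With 1 array per tissue and group there is no replicate check. In sclera, the log2 ratio of the lens-induced to the normal array was -0.32 ± 0.16 for miR-140-5p, -0.29 ± 0.17 for miR-140-3p and -0.25 ± 0.27 for miR-455-3p (± propagated probe error). None of the 3 met the criteria, whereas 28.7% of the miRNAs detected on either array did. The 0 D array differed from normal by -0.27 ± 0.16, 0.15 ± 0.17 and -0.42 ± 0.29 in the same order, where 22.9% of miRNAs met the criteria. Relative to the 0 D array, the lens-induced sclera array differed by -0.43 ± 0.17 for miR-140-3p, -0.06 ± 0.16 for miR-140-5p and 0.18 ± 0.31 for miR-455-3p, where 15.4% of miRNAs met the criteria.

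In choroid, the lens-induced array differed from normal by 0.04 for miR-140-5p, 0.08 for miR-140-3p and -0.13 for miR-455-3p, where 14.4% of miRNAs met the criteria. Its 0 D array differed from normal by -0.32 ± 0.16 for miR-140-5p, 0.25 ± 0.17 for miR-140-3p and -0.70 ± 0.35 for miR-455-3p, where 12.9% of miRNAs met the criteria. Lens-induced over 0 D gave 0.36 ± 0.16, -0.18 ± 0.17 and 0.56 ± 0.35 in the same order, where 15.6% of miRNAs met them. Thus in sclera and in choroid the 0 D array lay below normal for miR-140-5p and miR-455-3p and above normal for miR-140-3p. Iris had the same signs. In retina the signs were reversed for miR-140-5p and miR-140-3p, at 0.07 and -0.15. In cornea miR-140-5p and miR-455-3p lay above normal, at 0.09 and 0.05.

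Over the 6 ocular tissues and 3 contrasts, 40 pairs of arrays had a member detected on both, and their log2 ratios ran from -0.70 to 0.56 with none past the 2-fold limits. Over all miRNAs of these tissues, 18.3% of pairs met the criteria for lens-induced over normal, 16.5% for 0 D over normal and 16.9% for lens-induced over 0 D. The ratio exceeded 2 times its probe error in 3 pairs, miR-140-5p in lens-induced against normal sclera, miR-140-3p in lens-induced against 0 D sclera and miR-140-5p in lens-induced against 0 D choroid. A further 4 pairs met the criteria because 1 array had no detection. These were miR-140-3p in cornea, higher in lens-induced than in normal eyes (33.0% of miRNAs met the criteria there) and than in 0 D eyes (22.3%), and miR-140-5p in lens tissue, higher in lens-induced (12.2%) and in 0 D eyes (17.5%) than in normal eyes. The brighter miR-140-3p probe itself measured 9.26 in normal, 10.05 in 0 D and 9.76 in lens-induced cornea, and the brighter miR-140-5p probe 13.9, 16.3 and 16.9 in lens tissue, so these calls rest on the value of 0.1. In all 4 the upper limit of the undetected array lay above the detected signal, so no fold can be given.

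**Figure D4:**
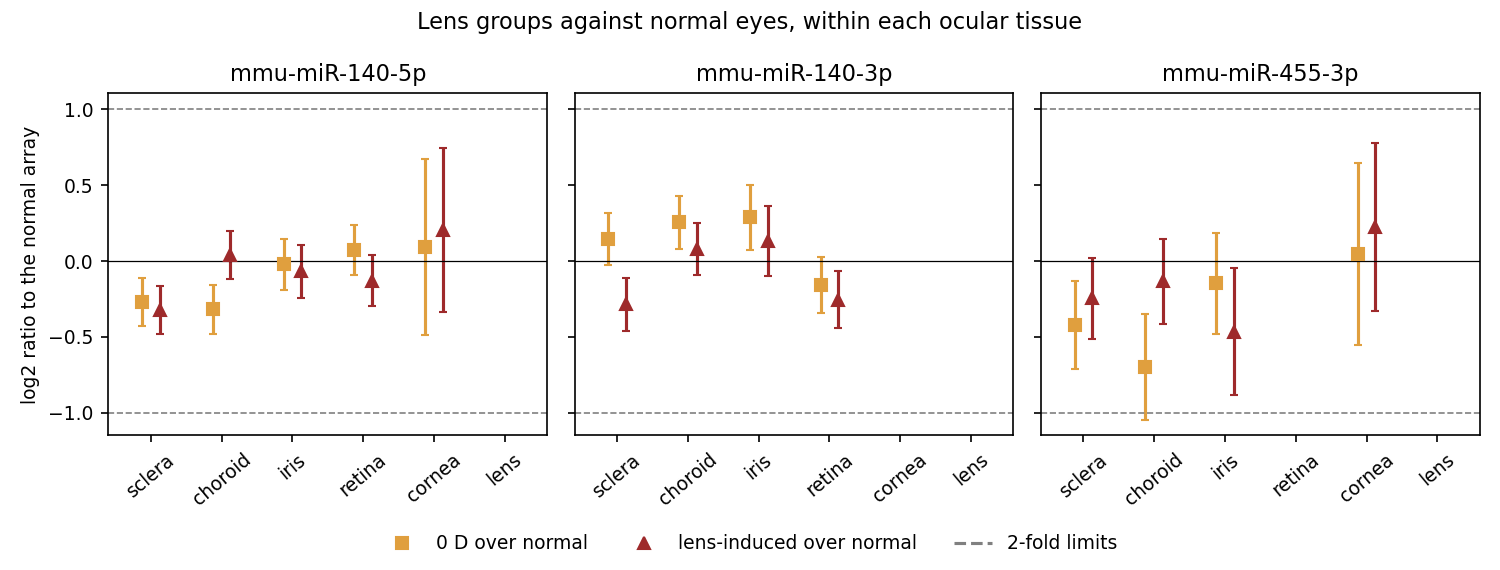
Log2 ratio of the 0 D (squares) and lens-induced (triangles) array to the normal array of the same tissue, with the propagated probe error as bar, for pairs with detection on both arrays. All points lie between the dashed 2-fold limits, from -0.70 to 0.29.

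A change shared by the 6 ocular tissues was tested with limma over the 308 miRNAs detected on at least 3 of the 18 ocular arrays. No miRNA passed in any of the 3 contrasts (0% of 308), and 19, 25 and 27 had an unadjusted p under 0.05 for lens-induced minus normal, 0 D minus normal and lens-induced minus 0 D. Lens-induced minus normal was 0.12 ± 0.16 (log2 ± SE) for miR-140-5p, 0.09 ± 0.16 for miR-140-3p and -0.03 ± 0.13 for miR-455-3p (adjusted p = 0.984 each). The 0 D minus normal difference was 0.08 ± 0.16, 0.13 ± 0.16 and -0.32 ± 0.13 in the same order, the last with an unadjusted p = 0.0318 and an adjusted p = 0.553. Undetected arrays entered at set values. These were normal lens tissue for miR-140-5p, and all lens tissue, normal cornea and 0 D cornea for miR-140-3p. For miR-455-3p they were all retina and lens tissue. Of the 13 pairs of the 3 arms measured on both arrays, 5 lay above 0 for lens-induced over normal (median -0.13). For 0 D over normal 6 of 13 did (median -0.02). Here the measured miR-455-3p ratios were -0.42 in sclera, -0.70 in choroid, -0.15 in iris and 0.05 in cornea. With the 75th percentile over all miRNAs, lens-induced minus normal was 0.99 and 0.96 for the miR-140 arms, and with undetected values at 0.1 it was 1.19 and 1.05, none of them passing. The count of 0 depended on the setting: 17 and 24 miRNAs passed for lens-induced minus normal and minus 0 D with that percentile, 2 and 8 after quantile normalization and 6 and 6 after normexp. For lens-induced minus 0 D alone, 8 passed with the brighter probe, 7 over all 8 tissues and 6 without the cornea arrays, and no member passed in any of these. The arrays of 1 group share a slide, so these p-values measure how alike the tissues were.

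Other miRNAs linked to cartilage, fibroblasts or matrix were examined as a list of 24, of which 20 were in the fit. Against the mean of the other tissues, 10 were higher in sclera, 6 lower and 4 did not pass, where 33.0% of all miRNAs were higher and 121 of 352 lower, with a median log2 difference of 0.16 against -0.01 over all 352 miRNAs. The largest differences were those of miR-199a-3p, miR-199b-5p and miR-214-3p, which are expressed from mesenchymal loci, at 5.35 ± 0.32, 5.14 ± 0.20 and 4.83 ± 0.19 (log2 ± SE). The smallest were miR-221-3p at -1.26 ± 0.14, miR-34a-5p, which p53 induces, at -0.90 ± 0.12, and miR-381-3p at -0.85 ± 0.24. Of these, miR-221-3p was detected on 1 of the sclera arrays and miR-381-3p on none, and their other sclera values were set at the dimmest detected signal. Among the miR-29 family, which represses collagen mRNAs, miR-29a-3p was higher by 0.31 while miR-29b-3p and miR-29c-3p were lower, at -0.50 and -0.73. Against choroid, 5 of the 20 were higher, 0 lower and 15 did not pass, where 9.94% of all miRNAs were higher and 30 of 352 lower. The list's median difference from choroid was 0.43, against 0.45 over all miRNAs, the value of a miRNA undetected in both tissues.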

How the data were processed

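The members and gene lists were chosen with earlier results of these data known. Per the methods, 100 ng of total RNA was labelled with cyanine 3, hybridized to the mouse miRNA array and scanned, and the authors extracted probe intensities with Agilent Feature Extraction 10.7.1.1. The deposited scanner files give, for each probe, a total intensity over its spots and its error. The deposited table of normalized values was not used, since its column letters did not settle the lens group. miRNA signals were summed over probes above 3 errors, since the total printed in the files differed from this sum for 52 to 96 detected miRNAs per array. Each array was scaled to an equal 75th percentile of the 79 miRNAs detected on all arrays (log2 factors -1.01 to 1.65). Undetected miRNAs stood at the array's lowest detected signal in the fits, and an upper limit is the highest of that signal, 3 summed errors and the measured sum. The number of arrays limits the precision.

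limma 3.58.1 (R 4.3.3, lmFit and eBayes) fitted tissue and lens group over miRNAs detected on at least 3 arrays, with an adjusted p threshold of 0.05. It was also run on simulated data with independent noise, no undetected values and no shared slide, which cannot check the effect of these. Fold changes are ratios of geometric means. Python 3.11.15 was used for tables and permutations (pandas 2.3.3, numpy 2.4.6) and drawing (matplotlib 3.10.9). The miRNAs named are the 4 members, for each of the 3 detected members the 3 most alike, those sharing a seed, and the extremes of the matrix list. miR-29, miR-499-5p and the ratio of miR-140-5p to miR-455-3p were added after their values were seen. Alternatives covered scaling, background (normexp, offset 50), probe choice, filters, undetected values and left-out groups.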

Additional observations from a re-analysis of the deposited data

How the results depend on the processing

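The excess of the 3 detected arms in sclera over the mean of the other tissues passed in every alternative that gave a value except the total printed in the files, where miR-140-5p (1.09) and miR-140-3p (1.68) did not. The printed total also turned the arm ratio difference to 0.40 and gave -1.96 for miR-140-5p in sclera minus cornea; the cause was not tested. The count of miRNAs higher in sclera was 49 with the 75th percentile over all miRNAs, which falls among undetected ones, and 33 over the 79 miRNAs detected on all arrays, none of them a member, against 116. The lens changes counted for members were 16 with that percentile, 8 after quantile normalization, and 0 after normexp or with undetected values at the lowest detected signal, against 4. For miR-455-3p, sclera minus choroid was -0.050 without scaling and -0.35 with the printed total, sclera minus iris -0.041 with the 75th percentile over all miRNAs, sclera minus cornea -1.05 after quantile normalization, -0.43 after normexp and -2.78 with the printed total, and sclera minus lens tissue -0.68 and -0.62 after quantile normalization and normexp.

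The lens differences common to the ocular tissues often changed sign. Lens-induced minus normal became -0.0026 and -0.038 for miR-140-5p and -0.091 and -0.015 for miR-140-3p after quantile normalization and normexp, and 0.84 and 0.033 for miR-455-3p with the 75th percentile over all miRNAs and normexp. The 0 D minus normal difference became -0.041 and -0.12 for miR-140-5p with that percentile and normexp, and -0.045, -0.011, -0.32 and -0.056 for miR-140-3p after quantile normalization, normexp, the printed total and the brighter probe alone (chosen after seeing the data). Lens-induced minus 0 D became -0.14, -0.039 and -0.099 for miR-140-5p without scaling, after quantile normalization and with the printed total. For miR-140-3p it became 0.96 with that percentile, 0.96 with undetected values at 0.1, 1.08 with the printed total, 0.16 with the brighter probe alone and 0.019 over all 8 tissues, and for miR-455-3p -0.074 with the printed total. With each tissue left out in turn, lens-induced minus normal ran from -0.055 to 0.21 for miR-140-5p, from -0.029 to 0.17 for miR-140-3p and from -0.087 to 0.052 for miR-455-3p, 0 D minus normal from -0.089 to 0.16 for miR-140-5p, and lens-induced minus 0 D from -0.027 to 0.085 for miR-140-5p and from -0.18 to 0.037 for miR-140-3p.

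The design limits these values. No tissue has a second array in any lens group, and the dim signals of all arms in cornea and lens tissue lie within a few probe errors of background. The probe error of miR-455-3p ran from 11.7% to 32.6% of its signal over the arrays that detected it.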
